A study of Mus musculus with 2 samples.

Results

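Transcripts of 10 genes through which cytokines act on lymphocytes were followed in immature γδ T cells of the fetal mouse thymus. They were the receptor chain genes Il7r, Il2rb, Il2rg, Il12rb2 and Il4ra, the receptor tyrosine kinase gene Kit, the kinase genes Jak1 and Jak3, and the transcription factor genes Stat4 and Stat3. Each symbol matched 1 row of the 31053 genes in the count matrices. The study holds 2 single-cell RNA libraries, TMREhi and TMRElo, both from wild-type C57BL/6 embryos. Thymic lobes of embryonic day 15 were kept in culture for 2 days with no treatment. CD24-positive γδ T cells, an immature stage, were then sorted by TMRE, a dye that enters mitochondria according to their membrane potential. TMREhi is the bright fraction and TMRElo the dim one. Each fraction gave 1 library, made with a 10x Chromium 5′ kit, and how many embryos went into it is not given in the sources used here.

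Cytokines of the common γ chain family hold a receptor together at the cell surface. The chain encoded by Il2rg joins the interleukin 7 receptor chain (Il7r), the shared β chain for interleukins 2 and 15 (Il2rb) or the interleukin 4 receptor chain (Il4ra), and JAK1 and JAK3 bound to the chains then phosphorylate STAT proteins. Interleukin 12 acts through Il12rb2 and STAT4, and STAT3 serves interleukins 6, 21 and 23. In the thymus interleukin 7 is required for γδ T cells to form, interleukin 15 sustains lymphocytes of cytotoxic type, and KIT, the receptor for stem cell factor, marks early precursors.

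Kit and Stat4 shared several of the differences described here, while Il7r took another course, so the RefSeq promoter windows of these 3 genes are shown first. Each window runs 250 bases before to 50 bases after an annotated start on GRCm38.p6, and 9 of the 10 genes matched an entry. The windows are chr15:9529827-9530126 on the minus strand for Il7r, chr5:75574737-75575036 on the plus strand for Kit and chr1:51986898-51987197 on the plus strand for Stat4. Capitals mark matches to the motifs TGTGGT (RUNX), TTCNNNGAA (STAT), GTAAACA (FOXO) and AGGAAGT (ETS) on either strand, and no 2 matches overlap.
Il7r: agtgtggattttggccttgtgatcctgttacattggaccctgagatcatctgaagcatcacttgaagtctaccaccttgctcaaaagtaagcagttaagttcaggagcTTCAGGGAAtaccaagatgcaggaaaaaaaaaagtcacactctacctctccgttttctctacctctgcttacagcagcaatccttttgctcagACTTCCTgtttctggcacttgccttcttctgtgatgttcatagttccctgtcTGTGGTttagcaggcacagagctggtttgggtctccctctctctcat
Kit: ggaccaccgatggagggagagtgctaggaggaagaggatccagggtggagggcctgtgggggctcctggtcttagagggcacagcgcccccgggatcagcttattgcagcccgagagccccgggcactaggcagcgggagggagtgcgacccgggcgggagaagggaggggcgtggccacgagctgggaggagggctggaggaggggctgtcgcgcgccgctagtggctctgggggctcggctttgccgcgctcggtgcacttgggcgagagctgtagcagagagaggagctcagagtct
Stat4: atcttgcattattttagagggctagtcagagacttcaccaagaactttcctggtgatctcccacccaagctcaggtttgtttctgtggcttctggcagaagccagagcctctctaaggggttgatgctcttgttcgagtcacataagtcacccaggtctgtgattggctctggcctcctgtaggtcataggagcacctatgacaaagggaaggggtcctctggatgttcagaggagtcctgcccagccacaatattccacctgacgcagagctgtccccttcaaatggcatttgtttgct
On the GENCODE annotation of GRCm38 the whole genes span chr15:9505788-9530176 for Il7r, chr5:75574916-75656722 for Kit and chr1:51987148-52107189 for Stat4. Il7r is on the minus strand and its GENCODE start is base 9530176. Its whole RefSeq window thus lies inside the GENCODE gene, downstream of that start. The Il7r window held a STAT match at position -142, an ETS match at -49 and a RUNX match at 3. Here 0 is the first base of the RefSeq entry, and the position is that of the match's first letter on the printed strand. The Kit and Stat4 windows, 2 for each gene, held no match, which says only that these letters are not there. Among the other genes, Il2rg had a RUNX match, Il12rb2 a STAT match and Stat3 an ETS match, while Il4ra, Jak1 and Jak3 had none. Of 32851 windows in the table, 16.8% held the RUNX letters, 8.30% the STAT letters, 3.65% the FOXO letters and 9.35% the ETS letters, so a match is a description and not a site.

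Values are UMIs (counted molecules) summed over barcodes and scaled to 1000000 UMIs of the same barcodes (CPM). Retained cells had at least 500 genes and at most 10% mitochondrial UMIs. They numbered 317 in TMREhi with 2905666 UMIs (median 7465 per cell) and 34 in TMRElo with 105080 UMIs (median 1679), and 5 cells held 44.0% of the TMRElo total. In retained cells 3 UMIs equal 1.03 CPM in TMREhi and 28.5 CPM in TMRElo. Barcodes with at least 500 genes were also split at 15% of UMIs from ribosomal protein genes, into a low-ribosomal class (733 in TMREhi, 117 in TMRElo) and a high-ribosomal class (292 and 16). The classes differed in depth (medians 1555 and 1037 UMIs in the low class, 8356.5 and 4071 in the high class) and in mitochondrial share (medians 16.9% and 14.4% in the low class, 3.55% and 3.92% in the high class). Retained cells of the libraries also differed in ribosomal share, with medians of 31.4% in TMREhi and 11.7% in TMRElo. No barcode sequence was shared between the libraries. Of 8 γδ T cell markers all 8 were detected in both libraries, and 84.2% of TMREhi and 85.3% of TMRElo retained cells held a γ V segment UMI. Of 8 markers of αβ-lineage thymocytes 8 were detected in TMREhi retained cells and 4 in TMRElo retained cells, with Rag1, Rag2, Ptcra and Cd4 at 0 in TMRElo, at 343 and 257 CPM summed. With 1 library per group there is no replicate check and no p-value. The 95% intervals in parentheses hold counting error only, not the spread between embryos, sorts or cells.

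Most of the 10 transcripts were lower in TMREhi than in TMRElo retained cells. Of the 10, 8 were at least 2-fold lower in TMREhi and 0 at least 2-fold higher, against 29.9% and 10.0% of the 7802 genes that averaged 10 CPM or more over the libraries. Their median log2 ratio was -1.39, against -0.35 over all those genes. Only 6 of the 8, Il2rb, Il2rg, Kit, Jak1, Stat4 and Stat3, had an interval that excluded equality. The 8 included Il12rb2 and Il4ra, which rested on 4 and 3 TMRElo UMIs.

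Among the receptor chains, Il2rb showed the widest gap in retained cells. It had 155 UMIs in 85 of 317 TMREhi cells (53.3 CPM, 45.3–62.4), against 33 UMIs in 11 of 34 TMRElo cells (314 CPM, 216–441), 5.89-fold lower in TMREhi (3.91–8.62). A single cell held 33.3% of the TMRElo UMIs, and without the cell richest in Il2rb of each library the log2 ratio was -2.09 (-2.76 to -1.39) in place of -2.54 (-3.11 to -1.97). Il2rg had 851 UMIs in TMREhi (293 CPM, 274–313), against 70 in TMRElo (666 CPM, 519–842), 2.27-fold lower in TMREhi (1.76–2.91). Il7r had 541 UMIs in TMREhi (186 CPM, 171–203), against 28 in TMRElo (266 CPM, 177–385), and the interval of its ratio, 0.699 (0.478–1.06), held 1. That interval excluded 1 over barcodes with at least 500 genes and no mitochondrial limit (0.591, 0.486–0.725) and over all deposited barcodes (0.608, 0.504–0.739), where Il7r was lower in TMREhi, and without the deepest cell of each library (log2 ratio -1.19 to -0.01). Il12rb2 stood at 12.4 CPM in TMREhi and 38.1 CPM in TMRElo, and Il4ra at 10.7 CPM in TMREhi and 28.5 CPM in TMRElo, with intervals that also held 1. Kit had 80 UMIs in 53 TMREhi cells (27.5 CPM, 21.8–34.3), against 17 UMIs in 9 TMRElo cells (162 CPM, 94.2–259), 5.88-fold lower in TMREhi (3.26–10.0).

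The signalling genes showed the same direction except for Jak3. Stat4 had 109 UMIs in 80 of 317 TMREhi cells (37.5 CPM, 30.8–45.3), against 31 UMIs in 18 of 34 TMRElo cells (295 CPM, 200.4–419), 7.86-fold lower in TMREhi (5.10–11.8). No TMRElo cell held more than 12.9% of these Stat4 UMIs. Stat3 stood at 41.6 CPM in TMREhi and 114 CPM in TMRElo, 2.74-fold lower in TMREhi (1.38–4.97). That interval widened to log2 ratios of -2.10 to 0.04 without the cell richest in Stat3 of each library. Jak1, the kinase shared by the common γ chain receptors, stood at 178 CPM in TMREhi and 428 CPM in TMRElo, 2.40-fold lower in TMREhi (1.73–3.26). Jak3, which binds the Il2rg chain, had 43 UMIs in TMREhi and 1 in TMRElo, too few to compare.

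**Figure D1:**
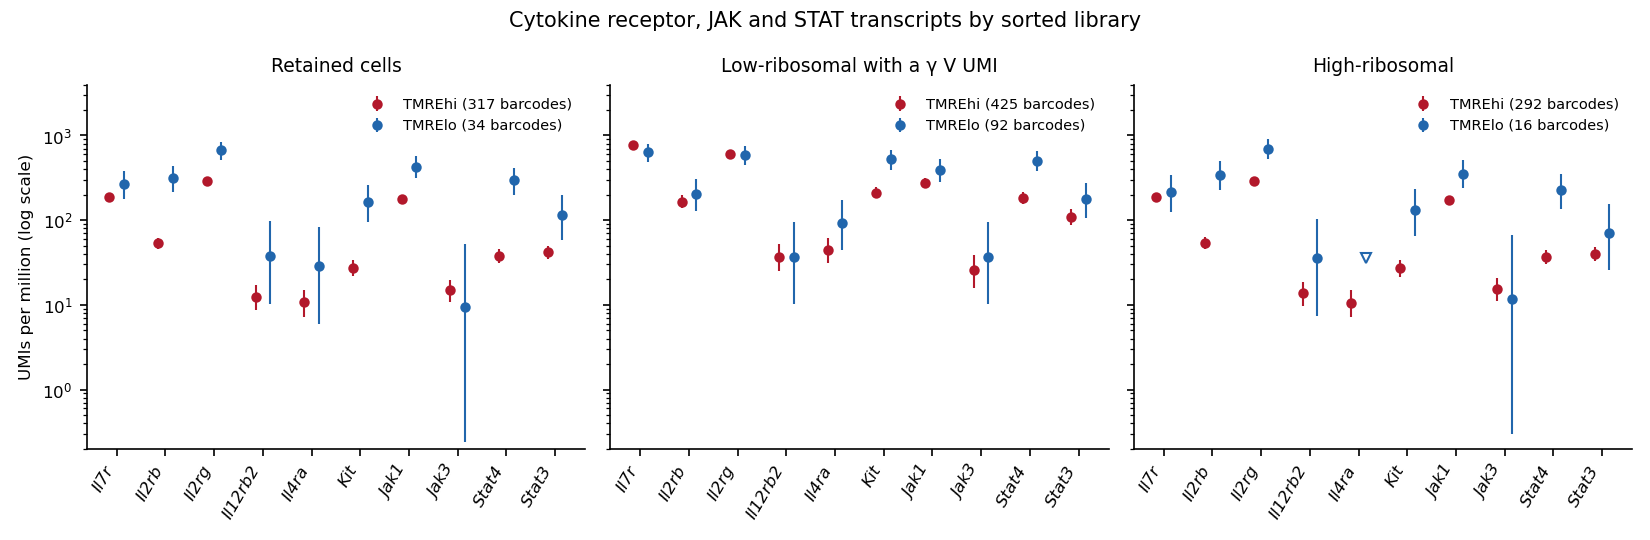
CPM (log axis) of the 10 genes in TMREhi (red) and TMRElo (blue) for retained cells, low-ribosomal barcodes with a γ V UMI and high-ribosomal barcodes, with exact Poisson intervals at 95%; the open triangle marks 0 UMIs, drawn at the level of 3 UMIs. In retained cells Stat4 stood at 37.5 CPM in TMREhi and 295 CPM in TMRElo, while in low-ribosomal barcodes with a γ V UMI Il7r and Il2rg were at similar heights in both libraries.

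The gap between the libraries was smaller among low-ribosomal barcodes, and among those with a γ V UMI it was clear for Kit and Stat4 alone. Over the whole low-ribosomal class 3 of the 10 were at least 2-fold lower in TMREhi, namely Il2rb, Kit and Stat4, against 13.4% of 8831 genes, and 0 were at least 2-fold higher (15.8% of genes). TMREhi had 197 Rag1-positive barcodes in this class and TMRElo had 1. Restricting the class to barcodes with a γ V UMI left 425 in TMREhi and 92 in TMRElo. In that set the median ribosomal share still differed, at 5.69% in TMREhi and 2.68% in TMRElo. The part of this difference in the gaps was not tested. There 3 of the 10, Kit, Stat4 and Il4ra, were at least 2-fold lower in TMREhi, against 14.2% of 8814 genes, and 0 were higher (15.4%).

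In that set Stat4 had 148 UMIs in TMREhi (181 CPM), against 54 in TMRElo (502 CPM), 2.77-fold lower in TMREhi (1.99–3.81). Kit had 172 UMIs in TMREhi (211 CPM), against 56 in TMRElo (521 CPM), 2.47-fold lower in TMREhi (1.79–3.36). Both ratios had intervals below 1 in retained cells, in both ribosomal classes and in their γ V subsets. Il2rb no longer stood apart, at 165 CPM in TMREhi and 205 CPM in TMRElo (ratio 0.808, 0.512–1.33). Il7r stood at 768 CPM in TMREhi and 632 CPM in TMRElo (1.21, 0.944–1.58), whereas over the whole class it lay on the other side of 1, at 537 CPM in TMREhi and 682 CPM in TMRElo (0.788, 0.633–0.990). Il2rg stood at 602 CPM in TMREhi and 586 CPM in TMRElo (1.03, 0.790–1.36). Jak1 (274 CPM in TMREhi, 391 CPM in TMRElo) and Stat3 (109 and 177 CPM in the same order) had intervals that held 1, and so did Il12rb2, Il4ra and Jak3, each on 10 or fewer TMRElo UMIs.

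In the high-ribosomal class, by contrast, 6 of 9 measured members were at least 2-fold lower in TMREhi, against 20% of 7410 genes, and 0 were higher (11.9%). Il2rb stood at 54.1 CPM in TMREhi and 344 CPM in TMRElo, 6.36-fold lower in TMREhi (4.12–9.49). Stat4 stood at 36.9 CPM in TMREhi and 225 CPM in TMRElo, 6.09-fold lower in TMREhi (3.53–9.98). Many of these barcodes are also retained cells, so these ratios partly repeat the ones above. The TMRElo side rested on 16 barcodes, 5 of which held 54.8% of its UMIs. In the same class the cytotoxic lymphocyte chemokine Xcl1 stood at 99.2 CPM in TMREhi and 4504 CPM in TMRElo, and Eomes, a factor of cytotoxic lymphocytes, had 4 UMIs in TMREhi and 9 in TMRElo. Of the interferon-γ and cytotoxic programme 19 genes were measured. Of these 15 were at least 2-fold lower and 1 higher in TMREhi, in this class and in retained cells alike. In retained cells 29.9% of all genes were that much lower and 10.0% higher. In low-ribosomal barcodes with a γ V UMI 3 of 16 were lower and 3 higher, against 14.2% and 15.4% of all genes. The part of such cells in the Il2rb gap was not tested. The interleukin 17 programme ran the other way. In TMREhi retained cells 9 of 14 measured genes were at least 2-fold higher and 1 lower (median log2 ratio 2.18), against 10.0% and 29.9% of all genes. In low-ribosomal barcodes with a γ V UMI 11 of 16 were higher and 0 lower (median 2.65), against 15.4% and 14.2% of all genes.

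**Figure D2:**
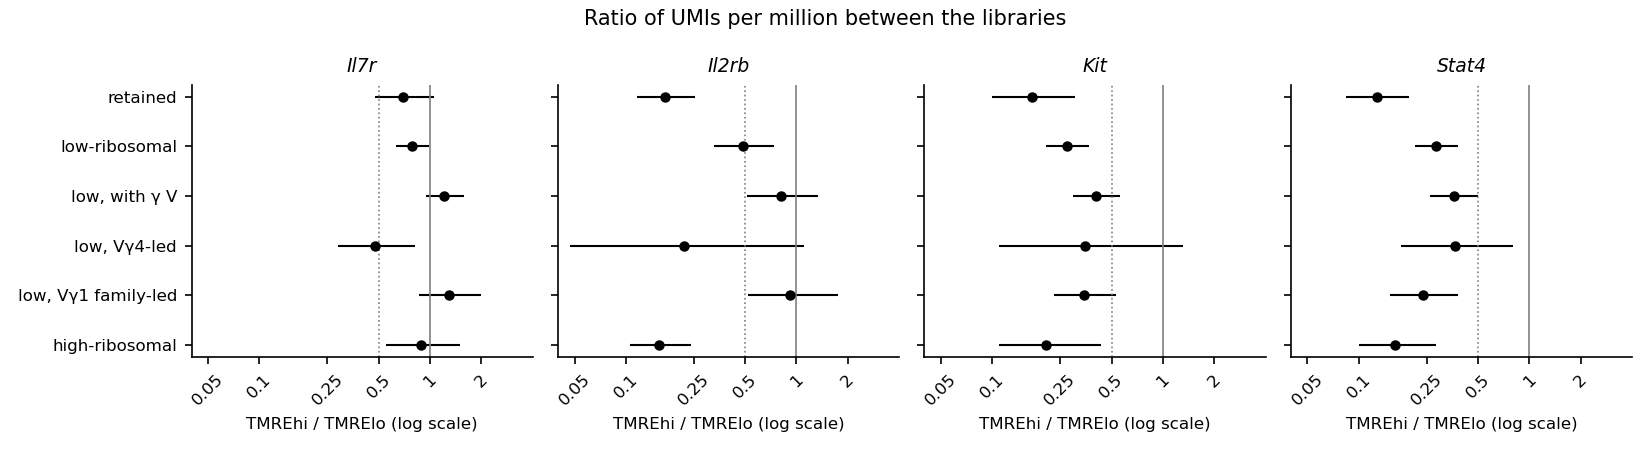
Ratio of CPM, TMREhi over TMRElo (log axis), for Il7r, Il2rb, Kit and Stat4 in 6 sets of barcodes, with exact intervals at 95%; the solid line marks 1 and the dotted line 0.5. Stat4 lay at 0.127 in retained cells and at 0.361 in low-ribosomal barcodes with a γ V UMI, whereas Il2rb was at 0.170 and 0.808 in these sets and Il7r crossed 1.

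Stat4 and Kit were lower in TMREhi among both Vγ1 family-led and Vγ4-led barcodes, with an interval that held 1 for Kit among the Vγ4-led ones. Among low-ribosomal barcodes led by a Vγ1 family segment (206 in TMREhi, 56 in TMRElo), Stat4 stood at 120.0 CPM in TMREhi and 501 CPM in TMRElo, 4.18-fold lower in TMREhi (2.62–6.57). Kit stood at 183 CPM in TMREhi and 531 CPM in TMRElo, 2.90-fold lower in TMREhi (1.89–4.36). They were the 2 of 10 that were at least 2-fold lower there, against 18.3% of 8646 genes, with 0 higher (20.1%). Among Vγ4-led barcodes (64 in TMREhi, 20 in TMRElo) 6 of the 10 were at least 2-fold lower and 1, Jak3, higher in TMREhi. But so were 26.7% and 34.4% of 7879 genes. In TMRElo 3 UMIs equal 142 CPM there, and the part of this low depth in those shares was not tested. Stat4 (208 CPM in TMREhi, 569 CPM in TMRElo), Jak1 (283 and 759 CPM) and Il7r (499 and 1043 CPM) were the members whose intervals excluded 1 in that subset, all lower in TMREhi, while Kit stood at 83.1 CPM in TMREhi and 237 CPM in TMRElo (ratio 0.350, 0.109–1.31). TMRElo held 1 Vγ5-led and 0 Vγ6-led barcodes, so these could not be compared.

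Other genes of the pathway were listed and counted the same way, in retained cells, where 29.9% of all genes were at least 2-fold lower and 10.0% higher in TMREhi. Of 32 other cytokine receptor chains 21 were measured, and 10 were at least 2-fold lower and 0 higher in TMREhi; their median log2 ratio was -0.87. In low-ribosomal barcodes with a γ V UMI the count was 5 lower and 7 higher of 27, against 14.2% and 15.4% of all genes. The gene Il10rb, a chain of the interleukin 10 receptor, stood at 9.64 CPM in TMREhi and 76.1 CPM in TMRElo (7.90-fold lower in TMREhi, 3.11–17.8). Tgfbr2, a chain of the TGF-β receptor, stood at 44.4 CPM in TMREhi and 199.8 CPM in TMRElo (4.50-fold lower in TMREhi, 2.69–7.17). Il6ra, the interleukin 6 receptor chain, had 9 UMIs in TMREhi and 4 in TMRElo among retained cells, and 10 and 15 UMIs among low-ribosomal barcodes with a γ V UMI, where it was 11.4-fold lower in TMREhi (4.79–28.4).

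Of 28 other JAK-STAT genes 23 were measured, 11 at least 2-fold lower and 0 higher in TMREhi (median log2 ratio -0.88). In the low-ribosomal set with γ V 4 of 25 were lower and 0 higher, against 14.2% and 15.4% of all genes. The 4 lower genes were thus a share near that of all genes. The feedback inhibitor gene Socs3, a STAT3 target, had 13 UMIs in TMREhi and 5 in TMRElo (10.6-fold lower in TMREhi, 2.97–31.8). Of 18 genes known as cytokine targets 11 were measured, 4 lower and 0 higher (median -0.84), a share near that of all genes. In the low-ribosomal set with γ V 4 of 14 were lower and 1 higher, against the same 14.2% and 15.4%. The D-type cyclin gene Ccnd2 stood at 137 CPM in TMREhi and 495 CPM in TMRElo (3.62-fold lower in TMREhi, 2.66–4.84), and at 247 CPM in TMREhi and 660.3 CPM in TMRElo among low-ribosomal barcodes with a γ V UMI (2.67-fold lower, 2.01–3.52). Bcl2, the survival gene kept on by interleukin 7, was 1.80-fold lower in TMREhi retained cells (1.16–2.67; 138 CPM, and 247 CPM in TMRElo) and 2.15-fold lower in the low-ribosomal set with γ V (1.69–2.70; 411 and 884 CPM). Myc ran the other way, at 103 CPM in TMREhi and 57.1 CPM in TMRElo, on 6 TMRElo UMIs and with an interval that held 1. In the low-ribosomal set with γ V the 3 list medians were closer to that of all genes (-0.08), at -0.03, -0.48 and -0.21.

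The share of barcodes with a UMI depends on depth, so every barcode was thinned to 1000 UMIs and shallower ones left out. Barcodes with Rag1, with Cd4 or Cd8 and without γ V (124 in TMREhi, 0 in TMRElo) served as cells that should lack Il7r and Il2rb. Their median depth was 1023.5 UMIs, against 1693 in the TMREhi and 1067.5 in the TMRElo low-ribosomal barcodes with γ V. After thinning, 63 Rag1 barcodes remained, with an Il7r UMI in 1.59% (0.0402–8.53) and an Il2rb UMI in 0 of 63, which allows up to 4.76%. Stat4 was found in 6.35% (1.76–15.5) of them, Jak1 in 12.7%, Stat3 in 11.1% and Il2rg in 20.6%, and whether these UMIs are free RNA or the cells' own transcripts was not tested.

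Of the low-ribosomal barcodes with γ V, 383 in TMREhi and 55 in TMRElo reached 1000 UMIs, and 42 and 37 were left out. Stat4 was found in 18.0% (14.3–22.2) of the TMREhi and 38.2% (25.4–52.3) of the TMRElo barcodes, and in 25.9% and 40.2% unthinned. The TMRElo interval lay above that of the Rag1 barcodes, and the TMREhi interval overlapped it at its lower end. All Rag1 barcodes came from TMREhi, so they give no background share for TMRElo, for Stat4 or the other genes. Kit was found in 15.4% (11.9–19.4) of TMREhi barcodes and 29.1% (17.6–42.9) of TMRElo barcodes (19.3% and 25% unthinned), against 0 of 63 Rag1 barcodes. Il7r was found in 33.4% (28.7–38.4) of TMREhi barcodes and 36.4% (23.8–50.4) of TMRElo barcodes (46.1% and 40.2% unthinned). Il2rb was found in 13.3% (10.1–17.1) of TMREhi barcodes and 21.8% (11.8–35.0) of TMRElo barcodes (19.3% and 18.5% unthinned). Stat4 and Il4ra were the genes whose TMREhi and TMRElo intervals did not overlap after thinning. For Il4ra they were 4.70% (2.81–7.33) in TMREhi and 16.4% (7.77–28.8) in TMRElo on 9 barcodes, against 8% and 10.9% unthinned, and both reached into the Rag1 barcodes' 3.17% (0.387–11). For Stat3 (8.88% in TMREhi, 18.2% in TMRElo) and Jak3 (2.87% in TMREhi, 3.64% in TMRElo) the intervals reached into those of the Rag1 barcodes. Their shares were thus not distinguishable from those of the Rag1 barcodes at this depth. The TMREhi intervals of Jak1 and of Il12rb2 (10 of 383 barcodes) reached into those of the Rag1 barcodes as well.

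**Figure D3:**
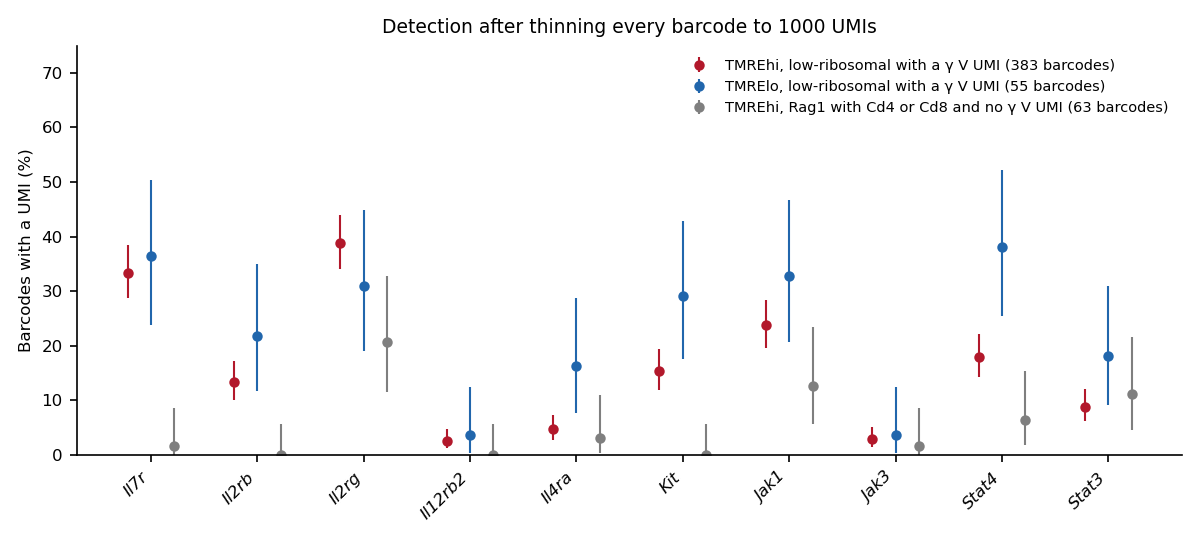
Share of barcodes with at least 1 UMI (%, linear axis) of each gene after thinning to 1000 UMIs, in low-ribosomal barcodes with a γ V UMI of TMREhi (red) and TMRElo (blue) and in TMREhi Rag1 barcodes without γ V (grey), with exact binomial intervals at 95%. Stat4 was found in 18.0% of TMREhi and 38.2% of TMRElo barcodes, against 6.35% of the Rag1 barcodes, and Kit in 0 of the 63 Rag1 barcodes.

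Within TMREhi most of the 10 genes were higher in CPM in the low-ribosomal class, but so was the median gene. Of the 10, 6 were at least 2-fold higher in CPM in the low-ribosomal class and 0 lower, against 45.0% and 10.7% of 8447 genes. With γ V barcodes only, 8 were higher and 0 lower, against 45.5% and 11.1% of 8439 genes. Ribosomal protein UMIs take up less of the total in the low class, and the median gene was itself higher there by 0.85 on the log2 scale, against 1.18 for the 10 genes and 1.5 with γ V only. Among γ V barcodes Kit stood at 211 CPM in the low-ribosomal and 27.0 CPM in the high-ribosomal class, 7.80-fold higher (5.92–10.4). Stat4 stood at 181 CPM in the low-ribosomal and 38.0 CPM in the high-ribosomal class (4.77-fold, 3.69–6.17), and Il7r at 768 and 187 CPM (4.10-fold, 3.65–4.61). Jak1 differed less, at 274 and 176 CPM (1.56-fold, 1.33–1.83), and its log2 ratio of 0.64 lay below the 0.85 of the median gene. With mitochondrial and ribosomal protein UMIs taken out of the totals the folds were 6.71 for Kit, 4.10 for Stat4, 3.53 for Il7r and 1.34 for Jak1. The median over all genes was not taken on those totals. Thinned to 1000 UMIs, Kit was found in 15.4% (11.9–19.4) of low-ribosomal and 2.21% (0.814–4.74) of high-ribosomal γ V barcodes (19.3% and 18.7% unthinned). Stat4 was found in 18.0% and 6.62% of them (25.9% and 28.6% unthinned), the second being close to the 6.35% of Rag1 barcodes.

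Barcodes were grouped by the γ V segment with the most UMIs. TMREhi had 73 Vγ4-led, 38 Vγ5-led and 93 Vγ6-led barcodes, and 404 led by a Vγ1 family segment. Vγ5 marks the fetal wave that settles in the epidermis and Vγ6 the fetal wave that makes interleukin 17. Vγ1, Vγ2 and Vγ3 segments are nearly identical and were counted as 1 family.

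Il7r was highest in Vγ6-led barcodes of both classes. In the low-ribosomal class it stood at 499 CPM in Vγ4-led, 488 CPM in Vγ5-led, 1709 CPM in Vγ6-led and 530 CPM in Vγ1 family-led barcodes. In the high-ribosomal class the values were 105 CPM for Vγ4-led, 150 CPM for Vγ5-led, 944 CPM for Vγ6-led and 124 CPM for Vγ1 family-led barcodes. Vγ6-led barcodes were thus 3.23-fold (2.60–3.99) above Vγ1 family-led barcodes in the low class and 7.63-fold (6.33–9.19) above them in the high class, while the other 3 groups did not differ from their neighbours beyond counting error. After thinning, an Il7r UMI was found in 66.7% (55.5–76.6) of 84 Vγ6-led barcodes, against 18.5% (14.7–22.7) of 390 Vγ1 family-led ones, 9 and 14 barcodes being left out (81.7% and 44.1% unthinned).

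Il2rb, Kit and Stat4 were highest in Vγ5-led barcodes of the low-ribosomal class. Stat4 stood at 208 CPM in Vγ4-led, 697 CPM in Vγ5-led, 237 CPM in Vγ6-led and 120.0 CPM in Vγ1 family-led barcodes, the second value resting on 30 UMIs in 30 barcodes. Vγ5-led barcodes were 5.81-fold (3.58–9.26) above the Vγ1 family for Stat4 and separated from the next group, and Vγ4-led ones lay above the Vγ1 family too (1.73-fold, 1.03–2.84). Kit stood at 83.1 CPM in Vγ4-led, 789.7 CPM in Vγ5-led, 131 CPM in Vγ6-led and 183 CPM in Vγ1 family-led barcodes, with Vγ5-led 4.31-fold (2.80–6.50) above the Vγ1 family. Leaving out the barcode richest in the gene in each group gave log2 ratios of 2.57 for Stat4 and 1.93 for Kit, in place of 2.53 and 2.10. For Il2rb the order was Vγ5-led (348 CPM), Vγ1 family-led (195 CPM), Vγ6-led (107 CPM) and Vγ4-led (41.6 CPM). No neighbours in it differed beyond counting error, although Vγ4-led barcodes were 4.69-fold below Vγ1 family-led ones (1.93–14.8, on 5 UMIs).

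Counted over the 10 genes in the low-ribosomal class, Vγ5-led over Vγ1 family-led barcodes gave 4 at least 2-fold higher and 0 lower, against 21.8% and 23.8% of 8625 genes. The 4 were Kit, Stat4, Stat3 and Il12rb2, the last on 4 UMIs. Vγ6-led barcodes had 1 higher, Il7r, and 0 lower, against 13.5% and 17.3% of 8735 genes. Vγ4-led barcodes had 0 higher and 2 lower, Il2rb and Kit, against 9.53% and 11.1% of 8668 genes. In the high-ribosomal class Vγ6-led barcodes had 3 of 9 higher, Il7r, Il4ra and Jak3, and 0 lower, against 13.5% and 15.7% of 7311 genes. Il2rg, the partner chain of Il7r, stood at 518 CPM in Vγ6-led and 269 CPM in Vγ1 family-led barcodes there (1.93-fold, 1.55–2.37), and Jak1 at 305 and 162 CPM (1.89-fold, 1.42–2.47). In that class the 8 Vγ5-led barcodes again held more Kit than the Vγ1 family (133 and 22.2 CPM; 5.99-fold, 2.46–12.7), but Stat4 could not be separated (49.9 and 34.4 CPM; 1.45-fold, 0.293–4.39).

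After thinning, Stat4 was found in 50% (32.4–67.6) of 34 Vγ5-led barcodes and in 8.72% (6.11–12) of 390 Vγ1 family-led ones (55.3% and 24% unthinned). Kit was found in 32.4% (17.4–50.5) of the Vγ5-led and 8.46% (5.90–11.7) of the Vγ1 family-led barcodes (52.6% and 18.8% unthinned). At 2000 UMIs, which 12 Vγ5-led and 294 Vγ1 family-led barcodes reached, the Kit shares were 41.7% (15.2–72.3) and 8.16% (5.30–11.9), but the Stat4 shares, 25% (5.49–57.2) and 9.52% (6.42–13.5), overlapped. The Vγ5-led barcodes were mostly of the low-ribosomal class, 30 of 38, and the Vγ1 family-led ones less so, 206 of 404.

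**Figure D4:**
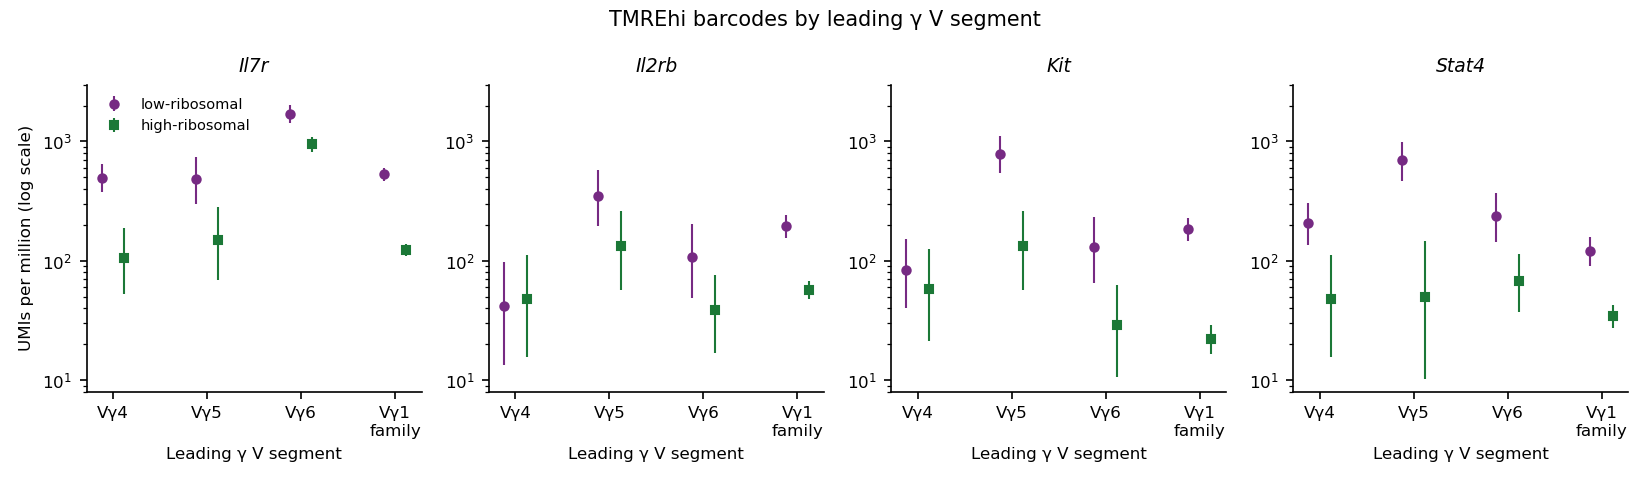
CPM (log axis) of Il7r, Il2rb, Kit and Stat4 in TMREhi barcodes by leading γ V segment, for the low-ribosomal class (purple circles) and the high-ribosomal class (green squares), with exact Poisson intervals at 95%. Il7r peaked in Vγ6-led barcodes of both classes, at 1709 CPM in the low and 944 CPM in the high class, and Kit and Stat4 peaked in low-ribosomal Vγ5-led barcodes at 789.7 and 697 CPM.

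Barcodes of TMREhi were next divided by the receptor they carried. An Il7r UMI without an Il2rb UMI was found in 284 barcodes (Il7r-only), the converse in 82 (Il2rb-only), both in 95 and neither in 564. Median depths were 2030 UMIs in Il7r-only, 2577.5 in Il2rb-only and 3696 in barcodes with both. Levels of Il7r and Il2rb themselves defined these groups and are no result.

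The groups carried different γ V segments. Of Il7r-only barcodes with a leading segment 28.4% (22.6–34.9; 62 of 218) were Vγ6-led, against 2.86% (0.348–9.94; 2 of 70) of Il2rb-only ones. Vγ5 led in 5.50% (2.88–9.42) of Il7r-only and 18.6% (10.3–29.7) of Il2rb-only barcodes, and the Vγ1 family in 53.7% (46.8–60.4) and 71.4% (59.4–81.6). The Vγ4 shares, 11.9% (7.94–17.0) in Il7r-only and 7.14% (2.36–15.9) in Il2rb-only barcodes, had overlapping intervals. Within the low-ribosomal class alone, Vγ6 led in 26.0% (18.6–34.5) of Il7r-only and 5.41% (0.661–18.2) of Il2rb-only barcodes.

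Of the 8 members that did not define the groups, Kit alone was at least 2-fold apart and alone had an interval that excluded equality. It stood at 57.4 CPM in Il7r-only and 158 CPM in Il2rb-only barcodes, 2.76-fold lower in Il7r-only (1.97–3.87). The difference was 3.23-fold (2.16–4.81) in the low-ribosomal and 3.42-fold (1.76–6.72) in the high-ribosomal class. Stat4 stood at 85.7 CPM in Il7r-only and 74.8 CPM in Il2rb-only barcodes (log2 ratio 0.19, -0.37 to 0.79). Il2rg, which both receptors use, stood at 379 and 420.1 CPM (ratio 0.901, 0.761–1.07), and Jak1 at 196 and 183 CPM (1.07, 0.834–1.39). Jak3, Stat3, Il12rb2 and Il4ra had ratios between 0.835 and 1.27 with intervals that held 1. Over all 7934 genes 3.09% were at least 2-fold lower and 4.87% at least 2-fold higher in Il7r-only barcodes. With barcodes holding a γ V UMI only, Kit stood at 58.2 CPM in Il7r-only and 159 CPM in Il2rb-only barcodes (2.74-fold lower, 1.95–3.85), where 3.26% of 7876 genes were that much lower and 4.85% that much higher.

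Genes of 2 effector programmes divided along the same line. Of 27 genes of the interferon-γ and cytotoxic programme 15 were measured, and 10 were at least 2-fold lower and 0 higher in Il7r-only barcodes, with a median log2 ratio of -2.06 against 0.01 over all genes. Of 21 genes of the interleukin 17 programme 16 were measured, and 8 were at least 2-fold higher and 0 lower (median 1.02). The counts were 14 of 19 lower and 13 of 18 higher in the low-ribosomal class, where 13.2% and 14.8% of 8725 genes were that far apart, and 10 of 13 lower and 6 of 16 higher in the high-ribosomal class (5.18% and 5.08% of 7185 genes). Of other cytokine receptor chains 7 of 23 measured were higher and 0 lower. For the list counts over both classes, 4.87% of all genes were at least 2-fold higher and 3.09% lower. Il23r and Il1r1 stood in this list and in the interleukin 17 list, so both counts hold them. Among the receptor chains, singled out after their values were seen, Il23r had 123 UMIs in Il7r-only and 3 in Il2rb-only barcodes. Il18r1 had 96 and 5, Il1r1 63 and 4, Il17re 49 and 2, and Il2ra 149 and 13. Other JAK-STAT genes gave 2 of 21 higher and 0 lower, and cytokine targets 1 of 10 higher and 1 lower, Pim2, also singled out with its value seen, at 24.5 CPM in Il7r-only and 50.6 CPM in Il2rb-only barcodes.

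The genes furthest apart were taken by rule among those averaging 100 CPM or more. Several are members of the lists just counted on the same barcodes, so the ranking in part repeats those counts. They are Gzmb, Ccl5, Xcl1, Tyrobp, Fcer1g and Klrd1 of the cytotoxic list, and Ccr2 and Tmem176b of the interleukin 17 list. Lowest in Il7r-only barcodes were the granzyme gene Gzmb, the chemokine genes Ccl5 and Xcl1, the adaptor genes Tyrobp and Fcer1g, the NK receptor gene Klrd1, the surface protein gene Cd7 and AW112010. Gzmb had 6 UMIs in Il7r-only barcodes (4.59 CPM), against 139 in Il2rb-only barcodes (306 CPM), 66.6-fold lower in Il7r-only (29.8–185). Ccl5 stood at 85.7 CPM in Il7r-only and 1190 CPM in Il2rb-only barcodes (13.9-fold lower, 11.3–17.2), and Cd7 at 278 and 1924 CPM (6.93-fold lower, 6.13–7.85). Highest were Cd163l1, a scavenger receptor gene of interleukin 17-type γδ T cells, the chemokine receptor genes Cxcr6 and Ccr2, S100a6, Tmem176b, Ckb, Arpp21 and Runx1. Cd163l1 stood at 806 CPM in Il7r-only and 119 CPM in Il2rb-only barcodes (6.79-fold, 5.16–9.10), and Ccr2 at 209 and 41.8 CPM (5.0-fold, 3.14–8.43).

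**Figure D5:**
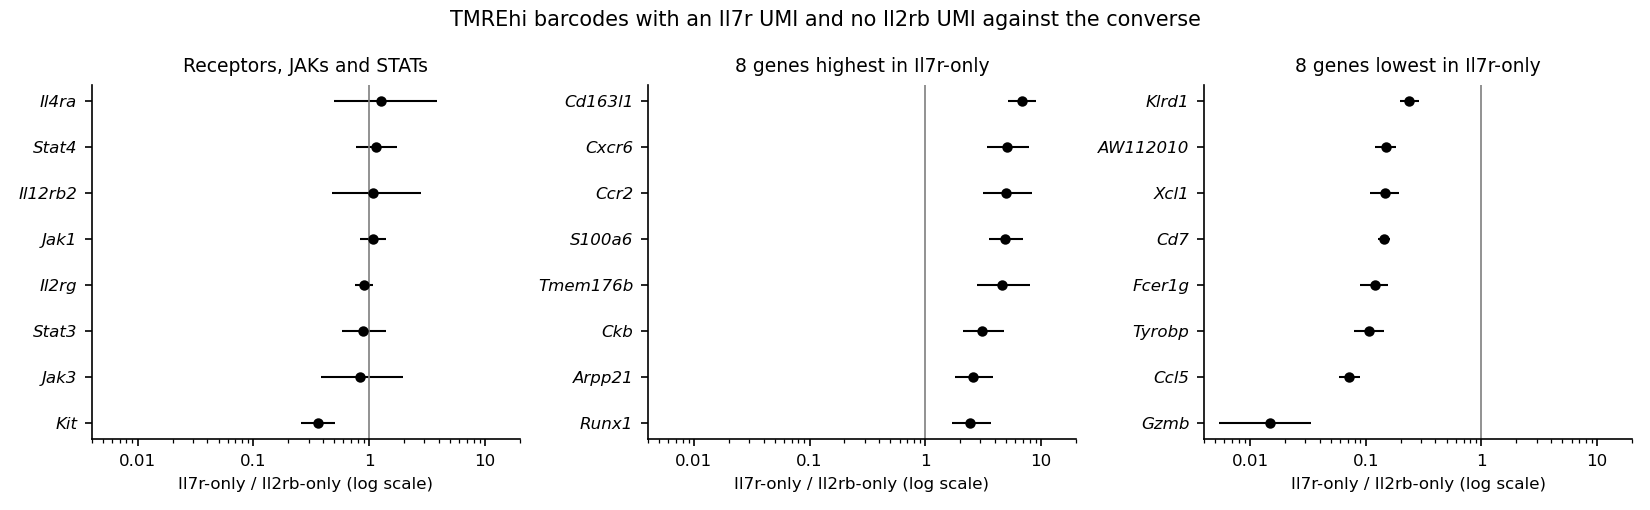
Ratio of CPM in TMREhi barcodes, Il7r-only over Il2rb-only (log axis), for the 8 members that did not define the groups and for the 8 highest and 8 lowest other genes, with exact intervals at 95%; the line marks 1. Among the members Kit lay apart at 0.362, Stat4 lay at 1.15 with an interval across 1, and Gzmb was the lowest at 0.0150.

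Whether Il7r and Il2rb were detected together varied with the barcodes counted. An Il2rb UMI was found in 25.1% (20.8–29.7) of 379 Il7r-positive and 12.7% (10.2–15.5) of 646 Il7r-negative barcodes. Among barcodes with a γ V UMI, at full depth, the shares were 26.2% (21.6–31.1) of 344 with Il7r and 21.8% (17.6–26.4) of 354 without it, with overlapping intervals. Among low-ribosomal γ V barcodes thinned to 1000 UMIs they were 14.1% (8.55–21.3) of 128 with Il7r and 12.9% (9.08–17.7) of 255 without it, again overlapping. Kit went with Il2rb in these thinned barcodes, where it was found in 35.3% (22.4–49.9) of 51 with an Il2rb UMI and in 12.3% (9.01–16.4) of 332 without. It was found in 15.6% of 128 with an Il7r UMI and 15.3% of 255 without. Il2rg was found in 50.8% (41.8–59.7) of those with Il7r and 32.9% (27.2–39.1) of those without, and Stat4 in 30.5% (19.2–43.9) of 59 with Kit and 15.7% (12–20.2) of 324 without, the last pair of intervals overlapping.

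Kit is also a mast cell gene, so Kit-positive barcodes were checked for mast cell markers. Of 146 Kit-positive TMREhi barcodes 91.1% held a γ V UMI, as did 84.8% of 33 TMRElo ones. Of 7 mast cell markers Cpa3 had 109 UMIs in 27 of the TMREhi barcodes and 0 in TMRElo, and the other 6, Mcpt1, Mcpt2, Mcpt4, Cma1, Fcer1a and Gata2, were at 0 in both. Over all barcodes with at least 500 genes Cpa3 had 573 UMIs in TMREhi and 1 in TMRElo. Most of its TMREhi UMIs thus lay outside the Kit-positive barcodes.

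In TMRElo the receptor groups were small, with 43 Il7r-only, 20 Il2rb-only, 9 double-positive and 61 other barcodes. Kit was again lower in Il7r-only (420.1 CPM, 22 UMIs) than in Il2rb-only barcodes (763 CPM, 36 UMIs), 1.82-fold (1.04–3.24), and 2.99-fold (1.66–5.49) in the low-ribosomal class. Stat4 stood at 420.1 CPM in Il7r-only and 381 CPM in Il2rb-only barcodes (1.10, 0.564–2.18). Vγ6 led in 0 of 26 Il7r-only barcodes of TMRElo with a leading segment. TMRElo held 0 Vγ6-led barcodes in any receptor group, so this 0 was fixed before the grouping. It says nothing about Il7r-only barcodes and cannot be set against the TMREhi share.

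Likeness of pattern was measured as Pearson's r of log2(CPM + 10) over the 6 TMREhi groups of V family and ribosomal class with at least 20 barcodes, among 3743 genes that averaged 50 CPM or more. Most like Stat4 were Nedd9 (r = 0.996), Cdc42se2 (0.995) and Cracr2a (0.993). Most like Il2rb were Pi4ka (0.991), Srcap (0.972) and Skiv2l2 (0.970), and most like Il7r were Cd163l1 (0.987), Clint1 (0.984) and Tasp1 (0.979). The named genes are the highest of 3743 over only 6 groups, and how high r reaches from such a choice alone was not tested. Il2rb rested on 5 UMIs in low-ribosomal Vγ4-led barcodes. It rested on 9 UMIs in low-ribosomal and 8 in high-ribosomal Vγ6-led barcodes. The 6 groups share 1 library and differ in depth, and the values describe these libraries only.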

How the data were processed

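The authors deposited raw UMI counts per gene and barcode for each library, as whole numbers. Cell Ranger 3.0.2 wrote them, per the file headers; Cell Ranger 3.0 and build mm10 are named in the submitters' processing notes. How cells were called, and with which annotation, is not given in the sources used here.

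From these counts, UMIs were summed per gene over barcodes and scaled to 1000000 (CPM). Log2 ratios were taken after adding 1 CPM. A gene was counted as measured at a mean of at least 10 CPM over the groups compared, and as different at 2-fold. Intervals at 95% are exact Poisson for levels, exact conditional for ratios and exact binomial for shares, and a count of 0 is set against 3 counts. No test between libraries was possible, with 1 library per group. The leading γ V segment is the one with most UMIs, and ties were left out. Doublets were called with Scrublet in scanpy 1.11.5 (2 of 1025 TMREhi and 24 of 133 TMRElo barcodes, 4 of these among the 34 retained) and kept. Their removal was tried for retained cells only, so the ratios among low-ribosomal barcodes were not checked for it. Scripts ran in Python 3.11.15 with pandas 2.3.3, scipy 1.17.1, numpy 2.4.6 and matplotlib 3.10.9. The ratios and intervals were tested on simulated data.

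The genes studied and the 5 gene lists were chosen with earlier results of these data known, and so support no direction independently. Named were the 10 genes, up to 6 members per list with the largest library ratio at a mean of at least 20 CPM, the 8 highest and 8 lowest genes between Il7r-only and Il2rb-only barcodes at a mean of at least 100 CPM, and 3 genes per likeness. The result of 1 gene that this rule names is not reported here. The ranking left out mitochondrial and ribosomal protein genes, antigen receptor, globin and predicted genes. Alternatives covered other barcode filters, doublet removal in retained cells, totals, pseudocounts, calls at 2 UMIs and thinning. Those that left out the barcode richest in a gene, and those for Kit between groups of barcodes, were added after seeing the data.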

Additional observations from a re-analysis of the deposited data

How the results depend on the processing

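No paired analysis was possible because each group is 1 library. Of 71 alternative values for the 11 main results, 56 stayed close to the reported value or kept their call and 15 moved. The log2 ratio of Il2rb between the libraries, -2.54 in retained cells, was -1.84 over all deposited barcodes, -1.92 with no mitochondrial limit and -1.49 with at least 1000 genes and at most 5% mitochondrial UMIs. The number of members at least 2-fold lower in TMREhi, 8 of 10 (29.9% of all genes), was 5 of 10 over all deposited barcodes (20.7% of all genes) and 5 of 10 with no mitochondrial limit (21.4%). The low over high ribosomal log2 ratio of Il7r, 1.51, was 2.03 with γ V barcodes only and 1.28 without mitochondrial and ribosomal protein UMIs. The share of Il7r-positive barcodes with Il2rb, 25.1%, was 8.43% at 2 UMIs per call, 34.4% in retained cells, 18.9% in the low and 34.2% in the high ribosomal class, and 13.3% after thinning. The Vγ6 over Vγ1 family log2 ratio of Il7r, 2.62, was 2.96 in retained cells, 1.69 in the low and 2.92 in the high ribosomal class. Stat4 stayed lower in TMREhi in 9 of 9 alternatives (-3.10 to -2.43), and so did Kit (-2.68 to -1.70). Il7r was lower in 8 of 9, with 0.01 under the stricter filter; its interval, which held equality in retained cells, excluded it over all deposited barcodes (-0.72), with no mitochondrial limit (-0.76) and without the deepest barcodes (-0.63). Il4ra, at -1.34, reversed to 3.33 under the stricter filter and to 0.025 without doublets, on 0 and 1 TMRElo UMIs. The cause was not tested for these changes. Depth limits TMRElo most, where 3 UMIs equal 28.5 CPM in retained cells.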
